A study of Arabidopsis thaliana with 18 samples.

Results

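The core hypoxia response genes examined here are 10 Arabidopsis thaliana genes that are switched on when oxygen is short: ADH1 (AT1G77120), PDC1 (AT4G33070), SUS1 (AT5G20830), SUS4 (AT3G43190), LBD41 (AT3G02550), PCO1 (AT5G15120), PCO2 (AT5G39890), PGB1 (AT2G16060), HRA1 (AT3G10040) and SRO5 (AT5G62520). They were chosen by gene identifier, and all 10 were found among the 37916 genes of the deposited table and passed the minimum mean of 1 TPM, as did 21831 genes in all. TPM is a transcript's share of the library per unit of gene length, so its values can be set side by side between genes.

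Polyadenylated RNA of whole seedlings grown on agar medium with sucrose was sequenced in 18 libraries of 6 groups, 3 libraries each. Plants carrying an insertion in PRMT5 (called prmt5) were kept at 22 °C, exposed to 37 °C for 3 days with harvest at its end, 0 h (called heat), or harvested 24 h after its end (called recovery). Wild-type plants (WT) were treated in the same 3 ways. The stated aim was to find heat stress genes expressed differently in the mutant at the end of the heat and a day later; PRMT5 encodes an enzyme that dimethylates arginines of proteins, among them proteins of the splicing machinery. Neither the insertion line, nor plant age, hour of harvest, recovery temperature or light is given in the sources used here, and 1 insertion line stands for the loss of PRMT5. Whether the 3 libraries of a group stem from independent cultures is not stated, so a p-value here refers to the spread among libraries, and that spread may be technical.

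In air, plant cysteine oxidases (the PCO enzymes) oxidise the first cysteine of the group VII ERF transcription factors, which marks these factors for breakdown through the N-degron pathway. When oxygen falls, the oxidases stop, the factors RAP2.12, RAP2.2, RAP2.3, HRE1 and HRE2 persist, and a small set of core genes is induced in nearly every cell type. Its products break down sucrose, ferment pyruvate to ethanol to regenerate NAD, remove nitric oxide, and feed back on the factors themselves. Roots and dense tissues such as meristems hold less oxygen than leaves even in air.

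The genotype labels held: PRMT5 was listed at 2.32 to 8.87 TPM in the 9 prmt5 libraries and at 25.3 to 47.7 TPM in the 9 WT libraries, a mean difference of -32.74 TPM (exact permutation of genotype labels within conditions, two-sided, p = 0.00025). The heat-shock gene HSP101 reached 104 to 121 TPM in prmt5 and 75.4 to 109 TPM in WT at heat, against at most 8.4 TPM in any other library. Markers of green tissue, root and vascular tissue were all detected in the seedlings, and summed green tissue markers stood at 868 to 9323 TPM in the libraries of heat and recovery, against 34631 to 43902 TPM at 22 °C. Because TPM are shares, fewer cells of a type and less RNA per cell cannot be told apart in these whole-seedling samples.

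Over the 6 groups the 10 genes did not share a pattern. PGB1, the oxygen-binding phytoglobin that removes nitric oxide, and ADH1 were the most abundant at 22 °C. SRO5, a gene of the RCD1 family of PARP-like proteins, had the lowest mean of the 10 at 22 °C and the highest at heat in both genotypes. Of the 10 genes, 6 (PGB1, PCO1, LBD41, PCO2, HRA1 and ADH1) had their lowest mean at heat in both genotypes, while ADH1 and SUS1 had their highest mean in prmt5 at recovery.

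**Figure D1:**
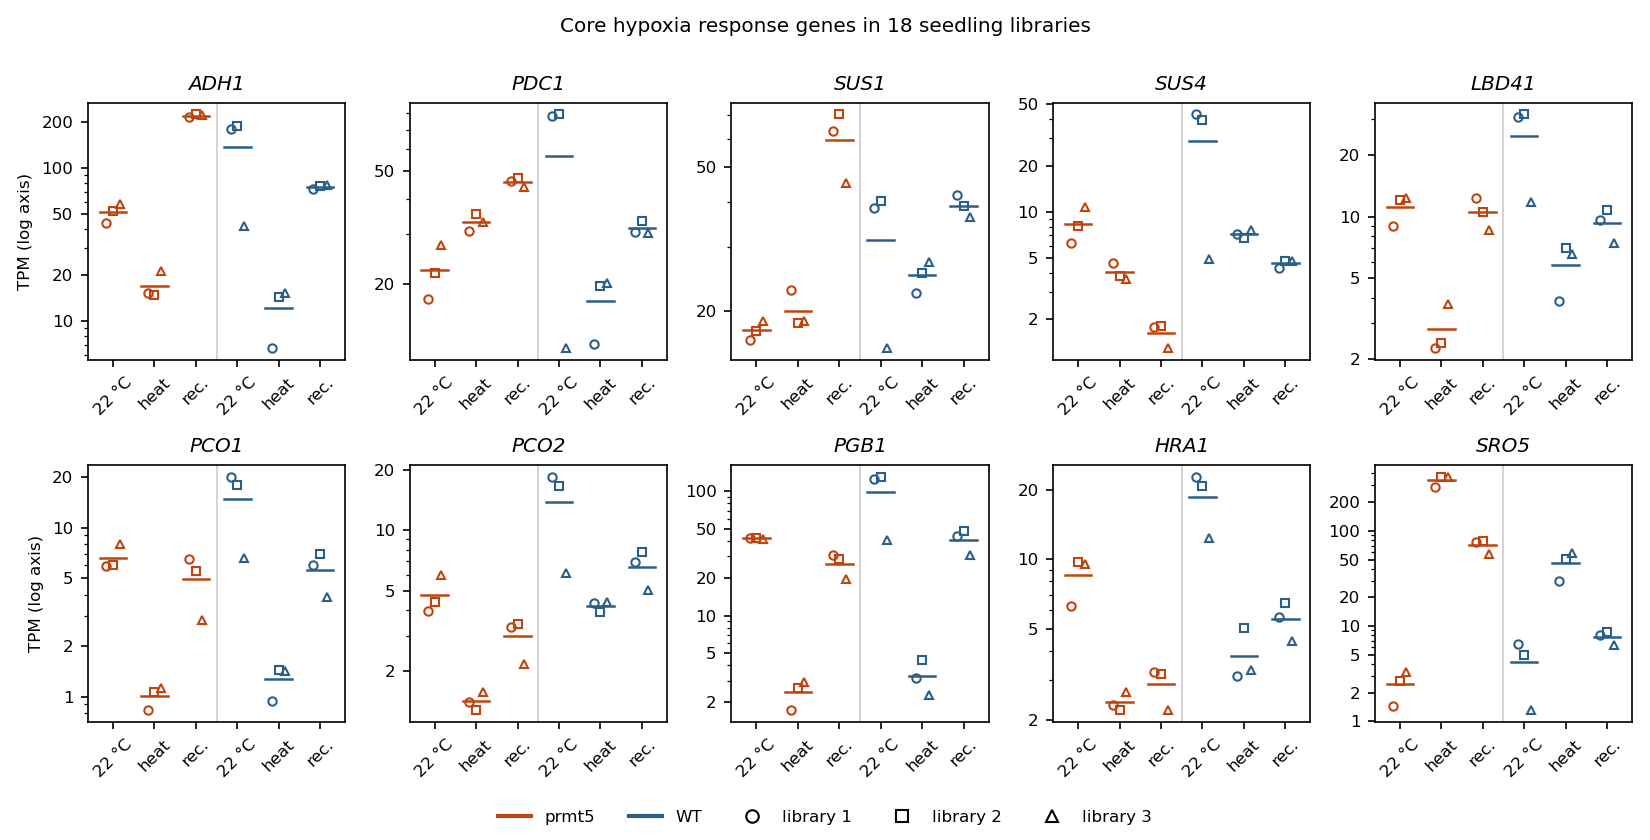
TPM (log axis) of the 10 core hypoxia response genes in each of the 18 libraries, with prmt5 on the left and WT on the right of each panel, in the order 22 °C, heat and recovery (rec.). Symbols are single libraries and bars are group means (n = 3); WT library 3 at 22 °C lies below libraries 1 and 2 in all 10 panels, and SRO5 in prmt5 at heat lies between 287 and 371 TPM.

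One group was not uniform, and this bears on every comparison that uses it. All comparisons come from 1 fit of the 18 libraries, so the spread within this group also enters the standard errors of comparisons that leave it out. In WT at 22 °C, libraries 1 and 2 were close to each other and library 3 was lower for all 10 genes. ADH1 had 181, 188 and 41.8 TPM, PDC1 78.2, 79.1 and 11.9 TPM, SUS4 43.0, 39.3 and 4.93 TPM and PGB1 126, 131 and 40.5 TPM in libraries 1, 2 and 3. The mean of libraries 1 and 2 was 1.77 (HRA1) to 8.35 (SUS4) times library 3, with a median of 3.03. Both libraries were at least 2-fold above library 3 (on TPM + 1) for 9 of the 10 genes, against 3.64% of all tested genes (794 of 21831). In no other group did any single library stand apart from the other two in this way for more than 1 of the 10 genes.

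The same split ran through a list of 27 other hypoxia-induced genes, of which 17 were at least 2-fold higher in both libraries 1 and 2, with a median ratio of 3.00 and 26 of 27 ratios above 1. Of the 10 core genes, library 3 lay below the range of the 3 prmt5 libraries for 6, inside it for 2 (LBD41 and PCO1) and above it for 2 (PCO2 and HRA1). Summed root markers moved with the split. They were at 111 to 152 TPM in prmt5 at 22 °C and at 213, 187 and 77.1 TPM in WT libraries 1, 2 and 3, with 15 and 16 of 18 markers at a group mean of 1 TPM or more and none at 0 in all libraries of a group. Their part in the result was not tested. Comparisons of the 10 core genes that use WT at 22 °C are therefore given with all 3 libraries and again with library 3 as the only one. This second version assumes that the lone library varies like those of the other groups. For markers and other gene lists it is given for only some genes. Leaving out library 3 instead had mostly the opposite effect on values of the 10 core genes. In the comparisons that use this group, 20 values then passed in addition and 28 kept direction and side of the threshold. Of the rest, 1 no longer passed and 1 changed sign. The heat and the recovery comparisons of a genotype share its libraries at 22 °C, so their values are not independent.

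**Figure D2:**
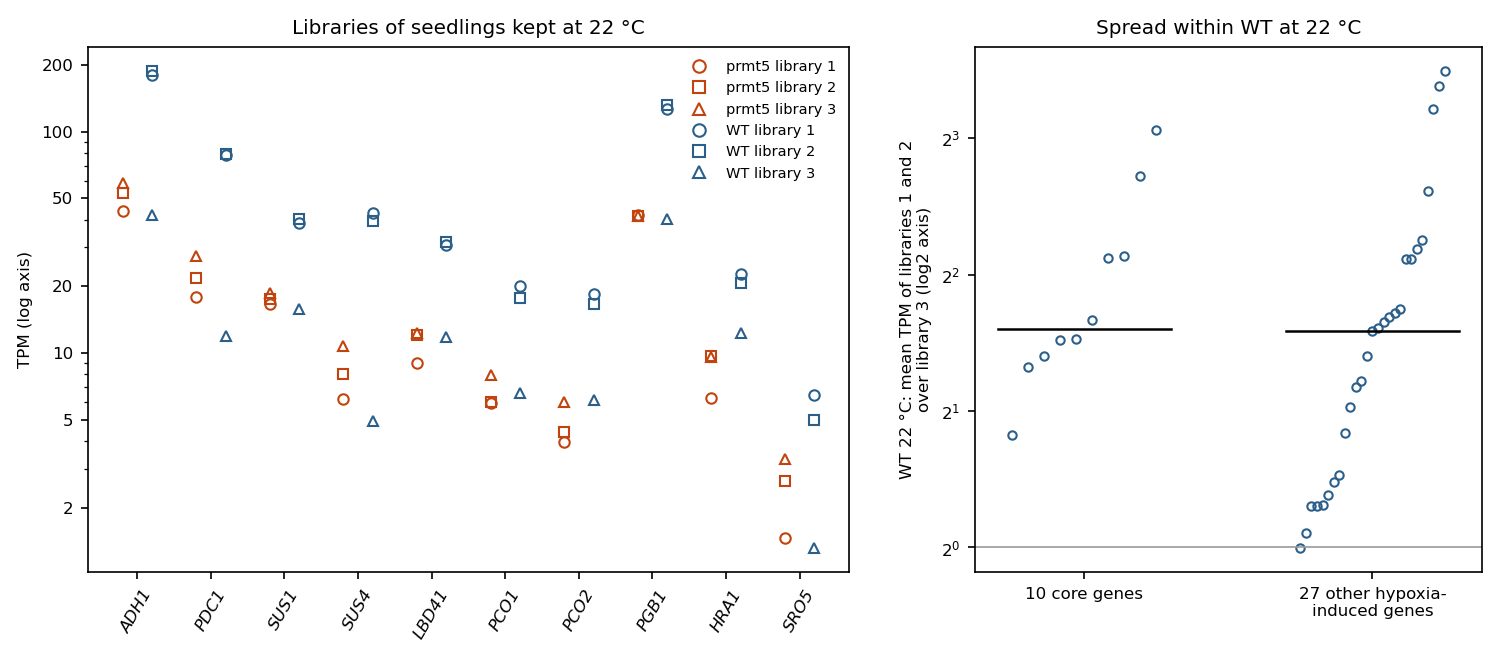
Left, TPM (log axis) of the 10 genes in each library kept at 22 °C, prmt5 to the left of WT. Right, for the 10 core genes and 27 other hypoxia-induced genes, the mean TPM of WT libraries 1 and 2 divided by WT library 3 (log2 axis), with the medians of 3.03 and 3.00 as bars; all 10 core genes and 26 of the 27 others lie above 1.

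TPM also shift with the rest of the library. Median-ratio scaling, which centres the libraries on a common median, moved the median log2 change of all genes to 0.06 in prmt5 and 0.00 in WT at heat against 22 °C, from the unscaled values given with each comparison, and to 0.07 in prmt5 and 0.02 in WT at recovery. Of all genes called, those higher then numbered 8129 of 16277 for WT heat (10879 of 16481 as deposited), 8730 of 16555 for prmt5 recovery (11649 of 17033) and 6689 of 13327 for WT recovery (10871 of 14646). For prmt5 recovery against heat they numbered 7874 of 16194 (9532 of 15806). In prmt5 against WT they numbered 2011 of 3639 at 22 °C (795 of 3256) and 7347 of 14638 at heat (4344 of 14885). For the interactions they numbered 5981 of 11592 at heat (3924 of 11201) and 5220 of 10364 for recovery against heat (7666 of 10726). Calls on core genes that depend on this scaling are named where they occur.

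At the end of the heat most core genes were lower than at 22 °C, and SRO5 alone rose. In prmt5, 6 genes fell, 1 rose and 3 did not pass the test, beside 36% of all tested genes called lower and 45.5% called higher (81.5% in all). The groups did not overlap for 9 of the 10, as for 80.3% of all genes. The median log2 change of the 10 was -1.36, against 0.19 for all genes. In WT, 8 genes fell, 1 rose and 1 did not pass, beside 25.7% of all genes called lower and 49.8% called higher (75.5% in all), with 7 of 10 not overlapping, as for 78.8% of all genes. The median was -1.63, against 0.35 for all genes. With WT library 3 as the only one at 22 °C, 5 genes fell, 2 rose and 3 did not pass in WT, beside 14402 of all 21831 genes called (9955 higher). The median of the 10 was then -0.70, against 0.41 for all genes.

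PGB1 fell most. It had 1.73, 2.62 and 2.9 TPM in prmt5 at heat, against 42.1, 41.7 and 41.5 TPM in prmt5 at 22 °C. In WT it had 3.14, 4.41 and 2.31 TPM at heat, against 126, 131 and 40.5 TPM at 22 °C. Every heat library of both genotypes was far below every library at 22 °C. The log2 change was -3.66 ± 0.35 (standard error) in prmt5 and -4.40 ± 0.35 in WT (limma, adjusted p = 6.32e-08 and 1.22e-08), and -3.30 ± 0.30 in WT with library 3 alone. Of the other phytoglobins, PGB2 fell by 1.52 on the log2 scale in prmt5 and by 0.41 in WT, whereas PGB3 rose by 1.25 in prmt5 and was at -0.18 in WT, where it did not pass, and where it was lower with median-ratio scaling (-0.56) and quantile normalization (-0.58).

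The genes of the sensing loop followed. PCO1, one of the oxygen-sensing oxidases whose gene is itself hypoxia-induced, had 0.83, 1.07 and 1.13 TPM in prmt5 at heat, against 5.93, 6.03 and 7.95 TPM in prmt5 at 22 °C. In WT it had 0.94, 1.44 and 1.42 TPM at heat, against 20.1, 17.8 and 6.57 TPM at 22 °C. The heat groups lay near 1 TPM in both genotypes, where log2(TPM + 1) understates the size of a change. PCO1 fell by 1.92 in prmt5 and by 2.68 in WT on this scale. PCO2, its close relative, fell by 1.25 in prmt5 and by 1.37 in WT, the WT value becoming -0.45 ± 0.25 (adjusted p = 0.131) with library 3 alone. LBD41, a LOB-domain transcription factor, fell by 1.68 in prmt5 and by 1.83 in WT. HRA1, a trihelix factor that binds RAP2.12 and restrains it, fell by 1.47 in prmt5 and by 2.01 in WT. The falls of PCO1, LBD41 and HRA1 in WT remained past the threshold with library 3 alone, at -1.75, -0.94 and -1.49.

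The fermentation and sucrose genes split. ADH1, the alcohol dehydrogenase that makes ethanol, had 15.2, 14.7 and 21.1 TPM in prmt5 at heat, against 43.7, 52.5 and 58.5 TPM in prmt5 at 22 °C. In WT it had 6.63, 14.3 and 15.3 TPM at heat, against 181, 188 and 41.8 TPM at 22 °C. The groups did not overlap in either genotype, and ADH1 fell by 1.56 ± 0.42 in prmt5 and by 3.20 ± 0.42 in WT (-1.79 with library 3 alone). PDC1, the pyruvate decarboxylase that supplies acetaldehyde to ADH1, had 30.9, 35.4 and 33.1 TPM in prmt5 at heat, against 17.8, 21.9 and 27.4 TPM in prmt5 at 22 °C, a log2 change of 0.56 ± 0.47 that did not pass (adjusted p = 0.281). In WT, PDC1 had 12.4, 19.8 and 20.2 TPM at heat, against 78.2, 79.1 and 11.9 TPM at 22 °C. This fall of 1.27 ± 0.47 (adjusted p = 0.0243) turned into 0.48 ± 0.24 (adjusted p = 0.0885) with library 3 alone.

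SUS1 and SUS4 encode sucrose synthases, which split sucrose with UDP and so spare ATP. SUS1 did not pass at heat in either genotype, at 0.17 ± 0.25 in prmt5 and -0.21 ± 0.25 in WT. With library 3 alone it was higher in WT at heat by 0.63 (adjusted p = 0.0128), and with median-ratio scaling it was lower, at -0.60 (adjusted p = 0.0293). SUS4 had 4.65, 3.8 and 3.62 TPM in prmt5 at heat, against 6.21, 8.08 and 10.8 TPM in prmt5 at 22 °C, a change of -0.87 ± 0.51 that did not pass. Its fall of 1.43 in WT (adjusted p = 0.018) became 0.46 ± 0.23 (adjusted p = 0.0949) with library 3 alone. The direction of PDC1, SUS1 and SUS4 in heated WT plants thus depended on which of the unheated libraries were used.

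To show the upstream sequence of the fermentation pair, the 200 bases before each annotated gene start are given 5′ to 3′ on the gene's strand, from the TAIR10.1 assembly of RefSeq. The ADH1 stretch is chr1:28975055-28975254 on the plus strand and the PDC1 stretch is chr4:15954804-15955003 on the minus strand. Capitals mark matches to the anaerobic response core AAACCA, to AACCA followed by any 3 bases and GC (a relaxed form of the hypoxia-responsive promoter element bound by the ERF factors) and to the G-box CACGTG. In ADH1 the first 2 motifs overlap.
ADH1: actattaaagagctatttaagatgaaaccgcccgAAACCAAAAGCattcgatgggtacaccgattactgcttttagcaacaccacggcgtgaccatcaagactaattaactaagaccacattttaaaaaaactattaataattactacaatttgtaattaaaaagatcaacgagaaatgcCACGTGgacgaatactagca
PDC1: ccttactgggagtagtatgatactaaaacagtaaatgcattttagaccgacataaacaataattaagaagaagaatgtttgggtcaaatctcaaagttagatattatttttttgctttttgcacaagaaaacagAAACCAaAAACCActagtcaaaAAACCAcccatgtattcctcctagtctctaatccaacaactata
Searched on both strands in the 200 bases before 27443 genes, AAACCA was found in 22.7% of all promoters, and among the 10 core genes in ADH1 (1 copy) and PDC1 (3 copies). The relaxed element was found in 1.39% of all promoters and, of the 10, in ADH1. CACGTG was found in 5.64% of all promoters and, of the 10, in ADH1 and LBD41. The paired heat shock element GAANNTTC was found in 7.59% of all promoters and in 0 of the 10, SRO5 included. These matches are letters in a window and say nothing of binding.

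SRO5 went the other way. It had 287, 371 and 367 TPM in prmt5 at heat, against 1.46, 2.65 and 3.31 TPM in prmt5 at 22 °C. In WT it had 29.9, 50.4 and 58.7 TPM at heat, against 6.44, 5 and 1.31 TPM at 22 °C. All heat libraries were above all libraries at 22 °C in both genotypes. The log2 change was 6.65 ± 0.35 in prmt5 and 3.28 ± 0.35 in WT (adjusted p = 5.8e-11 and 4.31e-07), and 4.30 ± 0.34 in WT with library 3 alone. The 200 bases before its start, chr5:25097744-25097943 on the plus strand of TAIR10.1, hold none of the 4 motifs and are shown to set the one heat-induced gene beside the fermentation pair.
SRO5: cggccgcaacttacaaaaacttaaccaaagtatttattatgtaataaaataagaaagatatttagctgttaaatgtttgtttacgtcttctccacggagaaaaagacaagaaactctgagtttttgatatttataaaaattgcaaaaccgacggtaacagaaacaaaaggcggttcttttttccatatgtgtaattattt
Among its relatives, all 4 tested members of the RCD1 and SRO family rose at heat in both genotypes, as did 45.5% of all genes in prmt5 and 49.8% in WT. SRO4 lay below the minimum mean and was not tested. It had 2.96, 3.35 and 0.46 TPM in WT at 22 °C, against 0, 0.05 and 0 TPM in WT at heat. In prmt5 it had 0.05 to 0.77 TPM at 22 °C and 0.07 to 0.51 TPM at heat. SRO3 rose by 7.69 in prmt5 and by 7.13 in WT, to 562, 578 and 608 TPM in prmt5 and 146, 196 and 222 TPM in WT. SRO2 rose by 5.75 in prmt5 and by 3.50 in WT, and RCD1, the founding member and a partner of many transcription factors, rose by 2.03 and 1.65. SRO1 rose by 1.06 in prmt5 and by 0.54 in WT, and its WT call was lost with median-ratio scaling, quantile normalization or library 3 alone.

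SRO5 shares 905 of its 1964 annotated bases with P5CDH, a proline breakdown gene on the opposite strand, and the strand setting of the authors' quantification is not given in the sources used here, so reads of the shared stretch could be split between them. P5CDH had 32.6, 31.5 and 32.1 TPM in prmt5 at heat, against 40.2, 47.9 and 47.4 TPM in prmt5 at 22 °C, and it had 48.3 to 49.8 TPM in WT at heat, against 40.8 to 51.0 TPM in WT at 22 °C. P5CDH fell by 0.48 in prmt5 and was at 0.08 in WT, where it did not pass; in WT it was lower with median-ratio scaling (-0.32) and higher with library 3 alone (0.26). ADH1 shares 61 of 2163 bases with a gene on the opposite strand, and the other 8 core genes share none. SUS1 and SUS4 are 84.3% identical over 2427 coding bases, with a longest identical run of 38 bases, and PCO1 and PCO2 are 67.1% identical, with a longest run of 14 bases.

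**Figure D3:**
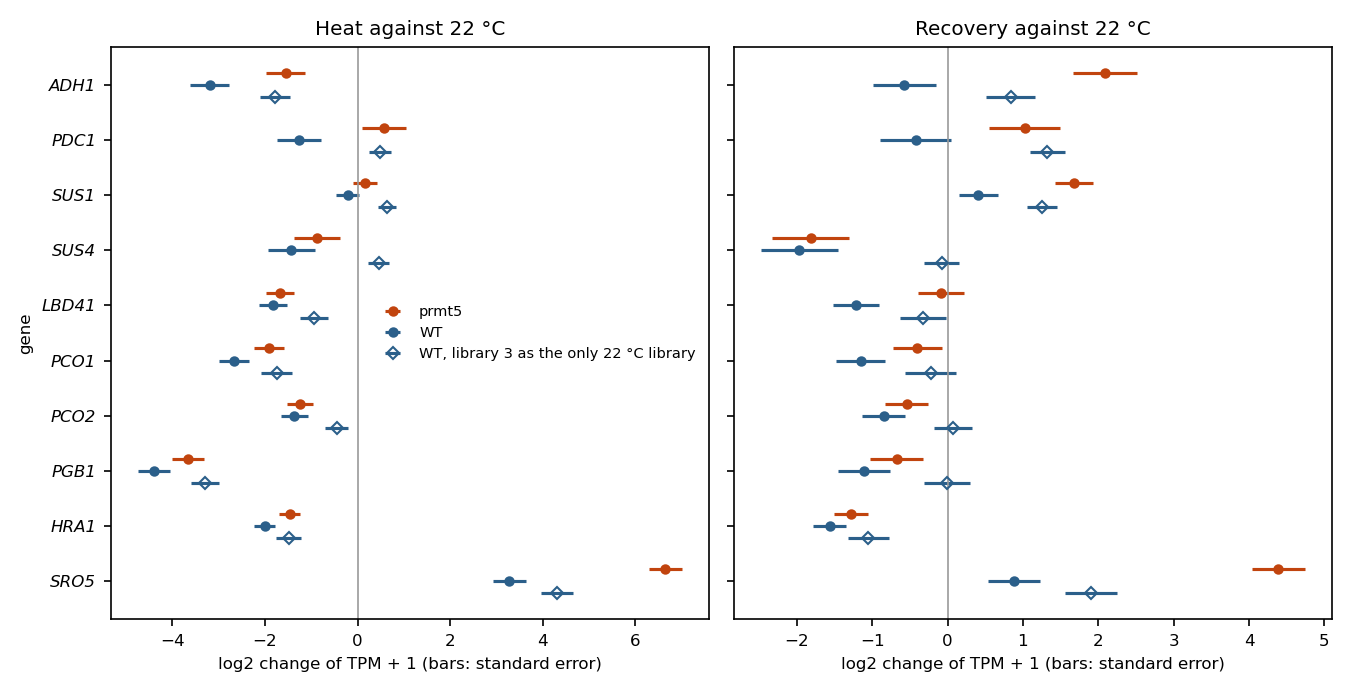
Log2 change of TPM + 1 (points, with standard errors as bars) of the 10 genes at heat and at recovery against 22 °C, for prmt5 (red) above WT (blue), and for WT with library 3 as the only library at 22 °C (open diamonds). At heat PGB1 lies at -3.66 in prmt5 and -4.40 in WT and SRO5 at 6.65 and 3.28; at recovery the open diamonds lie to the right of the filled WT points for all 10 genes.

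Other tissue markers moved in the same comparison. Of 15 tested root markers, 12 fell and 1 rose at heat in prmt5, and 11 fell and 2 rose in WT, with medians of -1.20 and -1.22. All 6 green tissue markers fell in prmt5 and 5 of 6 in WT, with medians of -5.61 and -3.46. Of 6 vascular markers, 4 rose and 2 fell in each genotype. These counts stand beside 36% of all genes called lower and 45.5% higher in prmt5, and 25.7% lower and 49.8% higher in WT. Summed root markers stood at 132 to 152 TPM in prmt5 at heat and 61.2 to 87.0 TPM in WT at heat, and RHD2, the root hair NADPH oxidase, made up 90.1 TPM of the prmt5 sum. In WT at 22 °C the root marker sum was 213, 187 and 77.1 TPM in libraries 1, 2 and 3. The sum of library 3 thus lay within the WT heat range, but its make-up differed. RHD2 had 1.16 TPM in library 3 and 8.1 to 15.7 TPM in WT at heat. PRX44, another root marker, had 3.65 TPM in library 3 and at most 0.98 TPM in WT at heat. The WT marker counts rest on all 3 libraries. The part of these markers in the fall of the core genes was not tested.

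A day after the heat, the core genes had separated, some being called higher than at 22 °C, some lower and some not past the threshold. The last of these are not thereby back at their unheated level. Against 22 °C, 3 genes were higher, 2 lower and 5 not past the threshold in prmt5, beside 53.4% of all genes called higher and 24.7% lower (78% in all). In WT, 1 was higher, 6 lower and 3 not past, beside 49.8% called higher and 17.3% lower (67.1% in all). Groups did not overlap for 8 of 10 in prmt5 and 3 of 10 in WT, as for 77.8% and 74.9% of all genes. Medians were -0.24 in prmt5 and -0.98 in WT, against 0.45 and 0.35 for all genes. With library 3 as the only unheated WT library, 4 genes were higher, 1 lower and 5 not past in WT, beside 12596 of all 21831 genes called (9620 higher).

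ADH1 was low at heat and, in both genotypes, higher at recovery than at heat. It had 215, 225 and 224 TPM in prmt5 at recovery, against 43.7, 52.5 and 58.5 TPM in prmt5 at 22 °C, and 72.9, 76.1 and 77.1 TPM in WT at recovery, against 181, 188 and 41.8 TPM in WT at 22 °C. All recovery libraries of prmt5 were above every other library of the study. ADH1 was higher by 2.09 ± 0.42 in prmt5 (adjusted p = 0.000283). In WT it was at -0.57 ± 0.42, which did not pass, and 0.84 ± 0.32 (adjusted p = 0.0393) with library 3 alone. Against the end of heat, ADH1 rose by 3.65 in prmt5 and by 2.62 in WT, a comparison that leaves out the plants kept at 22 °C.

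SUS1 had 63.2, 70.1 and 45.2 TPM in prmt5 at recovery, against 16.6, 17.5 and 18.8 TPM in prmt5 at 22 °C. It had 41.8, 38.9 and 36.4 TPM in WT at recovery, against 38.5, 40.2 and 15.7 TPM in WT at 22 °C. The prmt5 groups were apart, and SUS1 was higher by 1.68 ± 0.25 in prmt5 (adjusted p = 1.76e-05). The WT groups overlapped at 0.41 ± 0.25, which did not pass and became 1.26 ± 0.20 (adjusted p = 0.000141) with library 3 alone. PDC1 reached 43.9 to 47.5 TPM in prmt5 at recovery, without overlap with its 17.8 to 27.4 TPM in prmt5 at 22 °C. In WT at recovery it reached 30.4 to 33.4 TPM. Its change from 22 °C was 1.02 ± 0.47 in prmt5 and -0.42 ± 0.47 in WT, neither past the threshold, and 1.33 ± 0.24 (adjusted p = 0.000348) in WT with library 3 alone.

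SUS4 and HRA1 stayed low. SUS4 had 1.76, 1.79 and 1.29 TPM in prmt5 at recovery, and 4.31, 4.75 and 4.78 TPM in WT at recovery. Against the end of heat it was at -0.94 in prmt5, which did not pass but did with the scalings (-1.15 and -1.50). Against 22 °C it fell by 1.82 in prmt5 and by 1.97 in WT, and the WT fall became -0.08 ± 0.23 (adjusted p = 0.784) with library 3 alone. HRA1 had 2.22 to 3.24 TPM in prmt5 at recovery, against 6.26 to 9.72 TPM in prmt5 at 22 °C, and 4.43 to 6.45 TPM in WT at recovery, against 12.3 to 22.8 TPM in WT at 22 °C. It fell by 1.28 in prmt5 and by 1.57 in WT, and by 1.05 in WT with library 3 alone (adjusted p = 0.00528). Within the sucrose synthases, SUS4 and SUS1 parted in prmt5, and SUS3 was higher in both genotypes, averaging 48.9 TPM in prmt5 at recovery against 2.28 TPM at 22 °C, and 18.4 TPM in WT at recovery against 3.48 TPM at 22 °C.

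The means of PGB1, PCO1, LBD41 and PCO2 came back towards their unheated level. In WT, only PGB1 and PCO1 of these passed the threshold against the end of heat. PGB1 had 30.6, 28.4 and 19.6 TPM in prmt5 at recovery and 44.0, 48.1 and 30.6 TPM in WT at recovery. Against the end of heat PGB1 rose by 2.99 ± 0.35 in prmt5 and by 3.29 ± 0.35 in WT, and PCO1 rose by 1.52 in both. LBD41 rose by 1.60 in prmt5 and was at 0.61 ± 0.30 in WT (adjusted p = 0.0883). PCO2 rose by 0.70 in prmt5 (adjusted p = 0.0382), a call lost with median-ratio scaling (0.51) and with quantile normalization (0.23). In WT, PCO2 averaged 4.23 TPM at heat and 6.59 TPM at recovery, a rise that did not pass. Against 22 °C none of the 4 passed in prmt5, although PCO1, PCO2 and PGB1 were lower there with median-ratio scaling (-0.79, -0.91 and -1.12) and with quantile normalization (-0.83, -0.97 and -1.12). In WT all 4 were lower against 22 °C, by 0.85 (PCO2) to 1.22 (LBD41), and with library 3 alone none passed, at -0.33 (LBD41) to 0.07 (PCO2).

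Counted against the end of heat, 6 genes rose, 1 fell and 3 did not pass in prmt5, beside 43.7% of all genes called higher and 28.7% lower (72.4% in all). In WT, 4 rose, 1 fell and 5 did not pass, beside 31.2% called higher and 33.7% lower (64.9% in all). Groups did not overlap for 9 of 10 in each genotype, as for 75.3% and 70.8% of all genes. The medians of 1.11 in prmt5 and 0.62 in WT stood against 0.21 and -0.03 for all genes. The gene that fell was SRO5, by 2.26 in prmt5 and by 2.40 in WT, to 76.6, 77.8 and 57.4 TPM in prmt5 and 8.07, 8.61 and 6.4 TPM in WT. Against 22 °C it was still higher by 4.39 ± 0.35 in prmt5, and by 0.88 ± 0.35 in WT (adjusted p = 0.0362), a WT call lost with median-ratio scaling (0.56) but not with library 3 alone (1.90 ± 0.34). Root markers moved with this comparison too, as 9 of 15 rose against the end of heat in prmt5 and 10 of 15 in WT, and their part in the result was not tested.

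The comparison of the genotypes asks which core genes differ between plants with and without an intact PRMT5 gene in each condition. At 22 °C, 3 of the 10 genes (LBD41, PCO2 and HRA1) were lower in prmt5, none was higher and 7 did not pass, beside 14.9% of all genes called (11.3% lower, 3.64% higher). All 10 estimates were below 0, with a median of -0.999, against -0.10 for all genes, and groups did not overlap for 2 of the 10, as for 31.3% of all genes. This result rested largely on WT libraries 1 and 2, although library 3 also lay above the prmt5 range for PCO2 and HRA1. Without library 3, all 10 genes were lower in prmt5, and without library 1 or without library 2, 1 was. Of all 21831 genes, 3368 were called without library 3, 1690 without library 1 and 1994 without library 2. With library 3 as the only WT library, limma called 0 of 10, with a median of 0.10, beside 711 of all genes. Fitting the 22 °C libraries by themselves likewise called 0 of 10, beside 1190 of all genes. The LBD41 call was also lost with median-ratio scaling (-0.84) and quantile normalization (-0.83).

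At heat, 1 gene was higher in prmt5, 2 were lower and 7 did not pass, beside 68.2% of all genes called (19.9% higher, 48.3% lower). Groups did not overlap for 6 of the 10, as for 72.6% of all genes, and the median of -0.32 was close to the -0.34 of all genes. SRO5 was higher in prmt5 by 2.90 ± 0.35 (adjusted p = 2.91e-06), the 3 prmt5 libraries lying between 287 and 371 TPM and the WT libraries between 29.9 and 58.7 TPM. PCO2 had 1.41, 1.28 and 1.57 TPM in prmt5 at heat, against 4.36, 3.92 and 4.41 TPM in WT at heat. The groups were well apart, and PCO2 was lower in prmt5 by 1.11 ± 0.29 (adjusted p = 0.00286), but this became -0.47 (adjusted p = 0.139) with quantile normalization. LBD41 was lower by 0.83 ± 0.30 (adjusted p = 0.0245), which became -0.51 with median-ratio scaling and -0.16 with quantile normalization, neither past the threshold. With these scalings the median of all genes here is -0.01 and 0.02 in place of -0.34, and with one or the other PCO1, PGB1, HRA1 and SUS1, which did not pass, change sign. PDC1 had 30.9 to 35.4 TPM in prmt5 at heat and 12.4 to 20.2 TPM in WT at heat; this difference of 0.92 ± 0.47 (adjusted p = 0.0993) did not pass, and it passed at 1.30 and 1.16 with the 2 scalings.

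At recovery, 2 genes were higher in prmt5 (ADH1 and SRO5), 2 were lower (PCO2 and HRA1) and 6 did not pass, beside 59.7% of all genes called (27.8% higher, 31.9% lower). Groups did not overlap for 8 of the 10, as for 68.3% of all genes, and the median was -0.01, against -0.04 for all genes. ADH1, at 215 to 225 TPM in prmt5 and 72.9 to 77.1 TPM in WT, was higher in prmt5 by 1.54 ± 0.42 (adjusted p = 0.00512). SRO5, at 57.4 to 77.8 TPM in prmt5 and 6.4 to 8.61 TPM in WT, was higher by 3.04 ± 0.35 (adjusted p = 3.32e-06). PCO2, at 2.17 to 3.44 TPM in prmt5 and 5.04 to 7.77 TPM in WT, was lower by 0.93 ± 0.29 (adjusted p = 0.0111), and HRA1 was lower by 0.74 ± 0.22 (adjusted p = 0.00983). SUS4 at 1.29 to 1.79 TPM in prmt5 and 4.31 to 4.78 TPM in WT did not overlap but missed the threshold in the fit of all 18 libraries, at -1.11 ± 0.51 (adjusted p = 0.0711), whose spread includes that of WT at 22 °C. When the recovery libraries were fitted by themselves, 7 of 10 genes passed, 4 higher and 3 lower, beside 13279 of all 21831 genes (6150 higher). SUS1, at 0.57 in the fit of all libraries, passed with median-ratio scaling (0.66). Summed root markers were at 93.2 to 115 TPM in prmt5 and 124 to 201 TPM in WT, and summed green tissue markers at 868 to 1918 TPM in prmt5 and 4899 to 9323 TPM in WT; their part in the result was not tested.

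**Figure D4:**
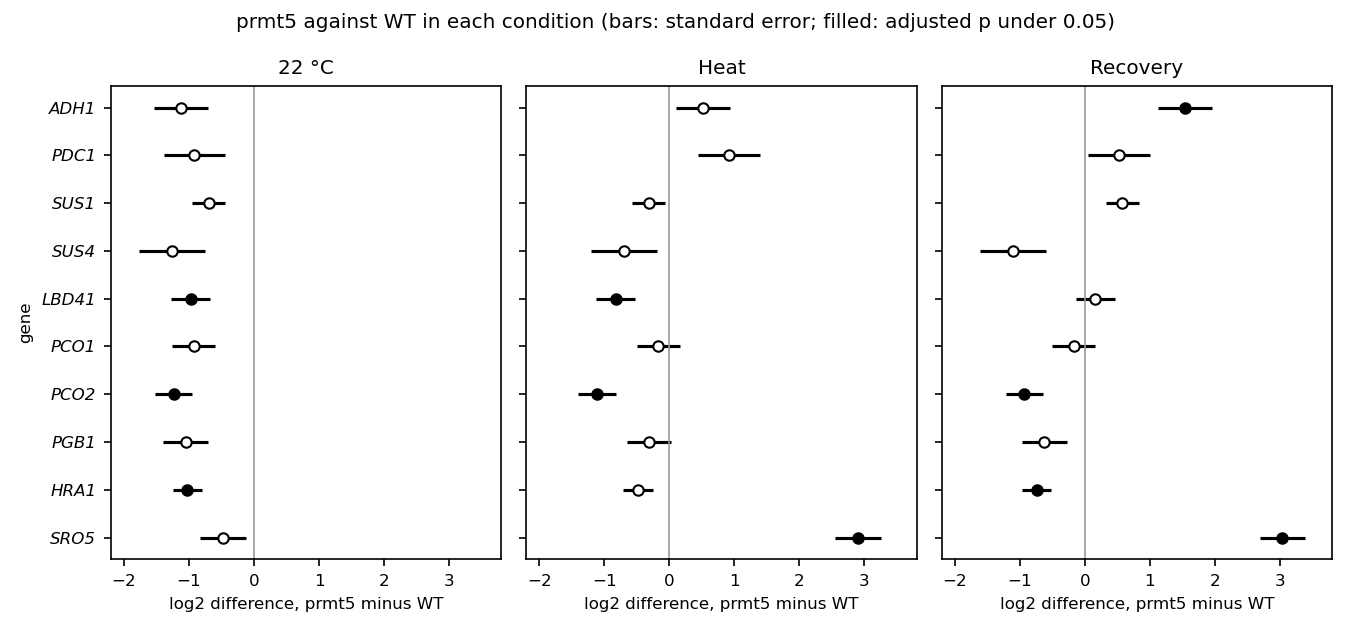
Log2 difference of TPM + 1, prmt5 minus WT, of the 10 genes at 22 °C, heat and recovery, with standard errors; filled points have an adjusted p under 0.05. All 10 points lie left of 0 at 22 °C, while SRO5 lies at 2.90 at heat and 3.04 at recovery and ADH1 at 1.54 at recovery.

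Whether the responses themselves differed between the genotypes was tested by the interaction, the log2 change in prmt5 minus that in WT. For heat against 22 °C, 3 genes passed, all with a positive difference: SRO5 (3.37 ± 0.50, adjusted p = 5.5e-05), PDC1 (1.83 ± 0.67, adjusted p = 0.0325) and ADH1 (1.64 ± 0.59, adjusted p = 0.0304), beside 51.3% of all genes called (18% positive, 33.3% negative). HRA1 passed in addition with median-ratio scaling (0.71) and quantile normalization (1.08), and PCO1 (1.25) and PGB1 (1.29) with quantile normalization. For recovery against 22 °C, 4 passed, all positive: SRO5 (3.51), ADH1 (2.66), SUS1 (1.27) and LBD41 (1.14), beside 46.2% of all genes (26.1% positive, 20.1% negative). With library 3 as the only WT library at 22 °C, SRO5 remained at 2.35 for heat and 2.49 for recovery (adjusted p = 0.000888 and 0.000975) and ADH1 at 1.25 for recovery (adjusted p = 0.0276), beside 8731 genes called for heat and 6910 for recovery of all 21831. The differences of PDC1 and ADH1 for heat and of SUS1 and LBD41 for recovery were then 0.08, 0.23, 0.42 and 0.25 and did not pass, and SUS4, at 0.56 and 0.15 with all libraries, passed at -1.33 for heat and -1.74 for recovery. For recovery against heat, limma called 0 of 10 genes, beside 49.1% of all genes (35.1% positive, 14% negative). Of the 10, 2 had an unadjusted p under 0.05, SUS1 at 0.89 ± 0.36 and LBD41 at 0.99 ± 0.43. The difference itself does not use the 22 °C plants, but its standard error includes the spread of WT at 22 °C. When the heat and recovery libraries were fitted by themselves, more of the 10 passed, beside 11051 of all 21831 genes.

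Across the 18 libraries, the sensing-loop genes and PGB1 were most alike. On the log2(TPM + 1) scale Pearson's r was 0.97 between PCO1 and PGB1, 0.95 between LBD41 and PCO1, 0.91 between LBD41 and PGB1 and 0.89 between PCO2 and HRA1. These points share libraries, treatments and the split within WT at 22 °C, so r describes these data only. Among the 10, ADH1 was most like PGB1 (0.80) and PCO1 (0.78), and PDC1 most like ADH1 (0.71). The 2 sucrose synthases were not alike (-0.18), and SRO5 ran against PGB1 and HRA1 (both -0.78).

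**Figure D5:**
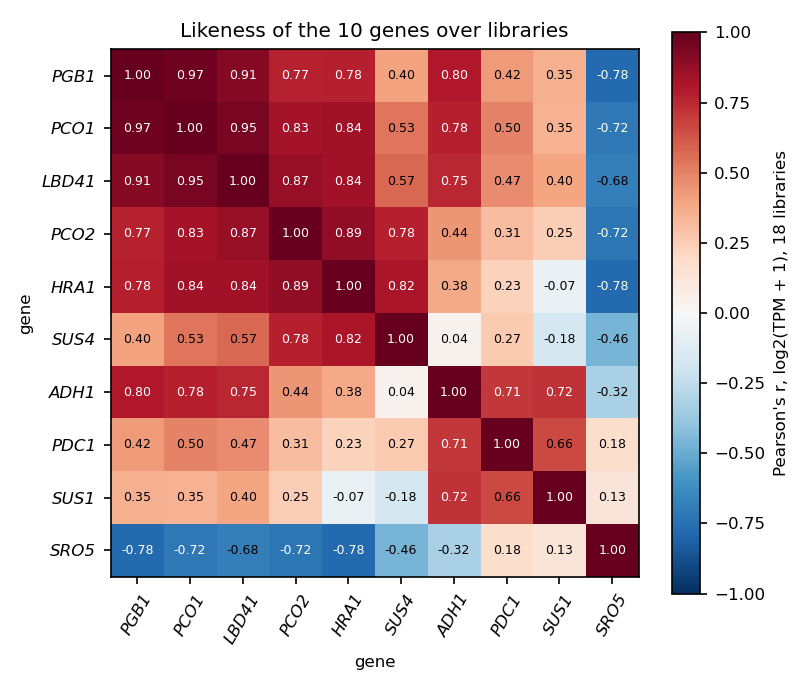
Pearson's r between each pair of the 10 genes over log2(TPM + 1) of 18 libraries, from blue (-1) through white (0) to red (1). PGB1, PCO1, LBD41, PCO2 and HRA1 form a block of high values, and SRO5 is negative with all of them.

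Outside the list, the named genes most like each core gene over the 18 libraries were XTH20 (r = 0.958) and ABCI21 (0.957) for ADH1, TRI (0.882) and ZFP3 (0.873) for PDC1, and GH3.17 (0.957) and VSR7 (0.954) for SUS1. They were NIA1 (0.917) and AGL12 (0.881) for SUS4, HSFC1 (0.928) and PHO2 (0.926) for LBD41, and TIP4;1 (0.965) and ATL9 (0.960) for PCO1. They were HXK3 and ACO1 (both 0.966) for PCO2, AMT1;3 (0.978) and RFNR2 (0.972) for PGB1, SAD6 (AT1G43800, also named FTM1 and one of the 27 other hypoxia-induced genes; 0.970) and SEOa (0.963) for HRA1, and PAP8 (0.990) and RCY1 (0.988) for SRO5. PAP8, the closest match of SRO5, averaged 256 TPM in prmt5 at heat and 73.1 TPM in WT at heat.

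Of 15 tested genes for oxygen sensing and the ERF factors, 10 rose, 1 fell and 4 did not pass at heat in prmt5, and 10 rose, 2 fell and 3 did not pass in WT, with medians of 0.85 and 0.78. Of all genes, 45.5% were called higher in prmt5 and 49.8% in WT, with medians of 0.19 and 0.35. The list includes HRE1 and HRE2, which are hypoxia-induced. The constitutively expressed factors rose at heat: RAP2.12 by 0.85 in prmt5 and 0.78 in WT, RAP2.2 by 0.92 and 0.89, and RAP2.3 by 1.33 and 1.86. PCO4 and PCO5, oxidases that are not hypoxia-induced, rose by 0.78 and 0.91 in prmt5 and by 0.92 and 0.42 in WT, the PCO5 call in WT being lost with both scalings. PCO3 was at -0.42 in prmt5 and -0.47 in WT and did not pass. It had 0, 8 and 12.31 TPM in prmt5 at 22 °C, and the library at 0 enters the spread of the fit. In WT, PCO3 had 9.93, 8.44 and 10.64 TPM at 22 °C and 7.06, 7.07 and 6.01 TPM at heat, without overlap. ATE1, the arginyl transferase of the N-degron pathway, rose by 1.83 and 1.89, and PRT6, its ubiquitin ligase, by 1.41 and 1.05. The hypoxia-induced factors HRE1 and HRE2 did not pass at heat, at 0.30 and -0.21 in prmt5 and -0.18 and 0.33 in WT. In WT, HRE1 was lower with median-ratio scaling (-0.54) and quantile normalization (-0.60), and with library 3 alone HRE1 (0.54) and HRE2 (1.37) were both higher. At recovery HRE1 averaged 14.8 TPM in prmt5 and 6.83 TPM in WT, higher in prmt5 by 1.02, and HRE2 averaged 5.84 TPM in prmt5 and 1.66 TPM in WT, higher by 1.33.

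PDC2, another pyruvate decarboxylase, is not part of the core set and is 76.0% identical to PDC1 over its coding bases. It had 267, 308 and 277 TPM in prmt5 at heat, against 52.7, 38.6 and 43.0 TPM in prmt5 at 22 °C, and 79.7, 106 and 102 TPM in WT at heat, against 53.2, 59.98 and 43.5 TPM in WT at 22 °C. The heat and 22 °C groups were apart in both genotypes, and WT library 3 at 22 °C was near the other two. PDC2 rose by 2.65 in prmt5 and by 0.87 in WT, and the difference between these responses was 1.78 ± 0.18 (adjusted p = 2.68e-06). Among 12 tested genes of fermentation and alanine metabolism, 6 rose, 4 fell and 2 did not pass at heat in prmt5, and 6 rose, 3 fell and 3 did not pass in WT. Of all genes, 45.5% were called higher and 36% lower in prmt5, and 49.8% higher and 25.7% lower in WT, shares near those of the list. ALAAT2 and ALAAT1, the alanine aminotransferases, rose by 2.37 and 1.94 in prmt5 and by 1.88 and 0.96 in WT, and GAD2, a glutamate decarboxylase, fell by 5.49 and 4.14.

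The 27 other hypoxia-induced genes also did not move as one. At heat 7 rose, 11 fell and 9 did not pass in prmt5, and 5 rose, 13 fell and 9 did not pass in WT, which became 9, 8 and 10 with library 3 alone. With all libraries, 45.5% of all genes were called higher and 36% lower in prmt5, and 49.8% higher and 25.7% lower in WT. Members of the 27 that fell in both genotypes included AT5G66985 (by 3.74 in prmt5 and 4.58 in WT) and AT5G65207 (by 3.38 and 3.62). Among those that rose were EXL1 (by 3.25 and 2.43) and CML38, a calcium sensor of hypoxic RNA granules (by 2.68 and 1.26). At 22 °C 12 of the 27 were lower in prmt5, led by AT2G17850 (-1.96), SAD6 (-1.87) and WIP4 (-1.77), and none was higher. Of all genes, 11.3% were called lower and 3.64% higher. This too leaned on WT libraries 1 and 2 for part of the list. WT library 3 lay above the range of the 3 prmt5 libraries for 10 of the 27, inside it for 11 and below it for 6. AT2G17850, SAD6 and WIP4 were among those where it lay above. At recovery 8 of the 27 were higher and 1 was lower in prmt5, beside 27.8% of all genes called higher and 31.9% lower. CML38 averaged 226 TPM in prmt5 and 31.95 TPM in WT at recovery, higher by 2.83, and EXL1 averaged 90.1 TPM in prmt5 and 23.3 TPM in WT, higher by 1.96. HRE1, HRE2 and ALAAT1 stand in 2 of these lists.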

How the data were processed

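Polyadenylated RNA of 18 Arabidopsis seedling libraries was quantified by the authors as TPM per gene; per the submitters' processing notes, RSEM and TAIR10 were used, with versions not given in the sources used here. Each deposited TPM column sums to 999999 to 1000001, so depth is unknown and no counting intervals are given. The authors also deposited 6 group means, which differ from the means of the libraries by at most 3.3e-05, and gene length per the file headers (not used in tests). Value columns matching no sample numbered 0.

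Genes with a mean of at least 1 TPM were tested on log2(TPM + 1) with limma 3.58.1 (R 4.3.3, eBayes with trend) in 1 fit of the 6 groups, leaving 12 residual degrees of freedom; p-values were Benjamini-Hochberg adjusted over 21831 genes, threshold 0.05. Fold changes on this scale understate changes of low genes. The fit was tested on simulated data. PRMT5 was tested by exact permutation within conditions. Errors beside log2 changes are standard errors. A group comparison was called not overlapping when all 3 libraries of one group lay above all 3 of the other. Of 37916 identifiers, 37573 matched the TAIR10.1 annotation; sequences come from it (Biopython 1.88), and no coordinates were converted. Tables were handled with Python 3.11.15 and pandas 2.3.3.

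The 10 genes and all lists were chosen with earlier results of these data known. Text names all 10 genes, up to 4 members of each other list with the largest changes past the threshold, a few preset regulators, and the 2 named genes most like each. Library numbers recur in every group, but same-numbered libraries did not deviate together (45 correlations from -0.195 to 0.189, 8 over 0.1), so no block was used. No libraries were duplicates: replicate pairs differed by an SD of 0.269 to 0.505 (log2, 9010 genes). Alternatives covered pseudocounts of 0.1 and 5, filters, scaling, organelle genes, smaller fits, a robust fit, the block and each library left out.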

Additional observations from a re-analysis of the deposited data

Results flagged for a closer look

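For 3 core genes the response to heat differed between the genotypes by the interaction test (limma, adjusted over all tested genes): the log2 change in prmt5 minus that in WT was 3.37 for SRO5, 1.83 for PDC1 and 1.64 for ADH1. Of all tested genes, 51.3% were called in this comparison. For 4 genes the change from 22 °C to recovery differed: 3.51 for SRO5, 2.66 for ADH1, 1.27 for SUS1 and 1.14 for LBD41. Here 46.2% of all tested genes were called. With library 3 as the only WT library at 22 °C, SRO5 passed in both comparisons (2.35 and 2.49) and ADH1 at recovery (1.25), and the other 4 differences did not pass. Groups of 3 libraries are too small for a test of single libraries that stand apart.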

How the results depend on the processing

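Of 2150 alternative values of single genes, 1906 kept direction and side of the threshold, 76 passed in addition, 104 no longer passed and 64 changed sign. Keeping only library 3 of WT at 22 °C was chosen after seeing the data; in the comparisons below, the cause of a change was not tested. Calls among all tested genes also changed and are given for some settings, the main fit first. At 22 °C, prmt5 against WT gave 3256, 3123 with a pseudocount of 5 and 1190 with only the groups compared. The interaction of heat gave 11201, 10647 with quantile normalization, 10613 with only the groups compared and 11161 without WT library 3 at 22 °C. WT recovery against 22 °C gave 14646, and 15152 with only the groups compared. Counts of core genes past the threshold were as follows. Between the genotypes at 22 °C (3), the count was 5 with a pseudocount of 5, 0 with only the groups compared, 0 with library 3 alone, and 1 to 10 with 1 library left out. For the interaction of heat (3) it was 1 without a filter, 6 with quantile normalization, 1 with only the groups compared, and 1 to 8 with 1 library left out, 8 being without WT library 3. For the interaction of recovery against 22 °C (4) it was 3 to 9, and for recovery against heat (0) it was 1 with a pseudocount of 5, a minimum of 5 TPM, quantile normalization, organelle genes left out or the replicate block, 3 with only the groups compared and 0 to 1 with 1 library left out. With only the groups compared it was 8 for prmt5 recovery against 22 °C (5, and 8 also with median-ratio scaling and quantile normalization), 2 for WT recovery against 22 °C (7, and 5 to 8 with 1 library left out), 8 for WT recovery against heat (5, and 4 to 5), 5 for prmt5 against WT at heat (3, and 2 to 3) and 7 at recovery (4, and 4 to 4). WT heat ranged from 7 to 10, prmt5 heat from 7 to 7, prmt5 recovery from 5 to 5 against 22 °C and from 6 to 7 against heat. PRMT5 ranged from -33.1 to -32.4 TPM; fitted by condition, the PRMT5 difference was -22.9 TPM (22 °C), -39.3 TPM (heat) and -36.0 TPM (recovery); 3 against 3 libraries gave their smallest exact permutation p of 0.1 every time. The replicate block also made PGB1 pass for prmt5 recovery against 22 °C (-0.68) and at 22 °C (-1.05), ended the call of LBD41 at 22 °C (-0.97), and made SUS1 pass in the interaction of recovery against heat (0.89); it changed no other call.

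Sign changes were as follows. With a pseudocount of 0.1 they were PCO2 in the interaction of heat (-0.14), SUS4 in that of recovery against 22 °C (-0.16) and PCO1 in that of recovery against heat (0.075); with a pseudocount of 5, PCO2 (-0.012) and SRO5 (-0.23) in the last. With median-ratio scaling they were HRA1 for prmt5 recovery against heat (-0.030), SUS1 (0.066) and PCO1 (0.043) between genotypes at heat, and PCO2 (-0.014) and SRO5 (-0.19) in the interaction of recovery against heat. With quantile normalization they were SUS1 for prmt5 heat (-0.0021), HRA1 for prmt5 recovery against heat (-0.33), PCO1 (0.46), PGB1 (0.37) and HRA1 (0.20) between genotypes at heat and PCO2 in the interaction of recovery against heat (-0.31). Without organelle genes it was PCO1 in that interaction (0.0014). With library 3 alone they were, in WT heat, PDC1 (0.48), SUS1 (0.63) and SUS4 (0.46); in WT recovery against 22 °C, ADH1 (0.84), PDC1 (1.33) and PCO2 (0.075); between genotypes at 22 °C, ADH1 (0.29), PDC1 (0.83), SUS1 (0.15), SUS4 (0.63), PCO1 (0.0025), PGB1 (0.046) and SRO5 (0.55); in the interaction of heat, SUS1 (-0.47), SUS4 (-1.33), LBD41 (-0.74), PCO1 (-0.17), PCO2 (-0.80) and PGB1 (-0.36); and in that of recovery, PDC1 (-0.30), SUS4 (-1.74), PCO1 (-0.18), PCO2 (-0.62), PGB1 (-0.67) and HRA1 (-0.23). With 1 library left out, LBD41 for prmt5 recovery ran from -0.21 to 0.043, LBD41 and PCO2 in the interaction of heat from -0.086 to 0.59 and -0.14 to 0.58, SUS4 in that of recovery from -0.35 to 1.09, PCO1 and SRO5 in that of recovery against heat from -0.21 to 0.28 and -0.058 to 0.42, PCO1 between genotypes at recovery from -0.38 to 0.12, SUS1 in WT heat from -0.64 to 0.014, and PDC1 and SUS1 in WT recovery from -1.30 to 0.018 and -0.014 to 0.64. TPM carry no read depth, so the precision of low genes such as PCO1 at heat is not known beyond the spread of 3 libraries.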

Other observations

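SESA1, which encodes a seed storage protein, was listed at 3.88, 2.99 and 1.9 TPM in prmt5 at heat and at 12.85, 38.57 and 6.99 TPM in WT at heat, and at 0 in all 6 libraries at 22 °C. At recovery it was at most 0.47 TPM in prmt5 and 0.76 TPM in WT. EM6, a late embryogenesis protein gene, had 3.83, 5.15 and 4.57 TPM in prmt5 at recovery, against 0.33, 0.8 and 0.49 TPM in prmt5 at 22 °C, and it passed the test there (limma, adjusted p = 1.85e-05) but not in prmt5 at heat (adjusted p = 0.132). In WT, EM6 had 1.02, 1.02 and 3.56 TPM at heat, against 0.34, 0.11 and 0 TPM at 22 °C. It passed in WT at heat (limma, adjusted p = 0.00104) but not at recovery (adjusted p = 0.186). The share of mitochondrion-encoded transcripts was 2.13% to 2.58% in prmt5 and 2.17% to 2.43% in WT at heat, against at most 0.0116% in any library at 22 °C.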
